A study of Homo sapiens with 15 samples.

Results

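Ribosome footprints of human HEK293 cells that overexpressed ZC3H7B were compared with those of cells that carried only the Flag/HA tag. ZC3H7B is an RNA-binding protein of the CCCH zinc finger class, and HEK293 is an established line from embryonic kidney. The comparison rests on 6 ribosome profiling libraries of the 15 in the series, 3 with Flag/HA-tagged ZC3H7B and 3 of the Flag/HA control. Genes were kept when at least 3 of these 6 libraries held 10 or more normalized counts, which left 15135 of 55773 gene names. The secretory, membrane and adhesion genes among them, which are described in most detail, were taken from 22 lists holding 1118 genes, of which 919 passed this filter. In 17 of those 919, and in 230 of the 15135, the level of 10 was reached in libraries of 1 group only.

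Both groups came from doxycycline-inducible (Flp-In T-REx) 293 cells. Both are labelled as doxycycline-treated, and the protocol gives 1 µg/mL for 24 h as the induction of the tagged proteins. The labels describe 3 independent replicates per group. The control carried the Flag/HA tag alone, and the groups are different lines, so a difference between lines and a response to the protein cannot be told apart here. A further group of 3 libraries, from a line with tagged ZC3H7A, the paralogue of ZC3H7B, was made the same way and serves as a reference in places. The 3 groups were lysed in a hypotonic buffer with Triton X-100 and sodium deoxycholate and digested with RNase I. The other 6 libraries of the series, from a parental line and a line labelled as lacking ZC3H7A and depleted of ZC3H7B, were not used.

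Ribosome profiling sequences the short piece of mRNA covered by each ribosome, so the reads on a gene rise with the amount of its mRNA and with the number of ribosomes on each copy. These 2 contributions cannot be separated with footprints alone, and fewer cells or less RNA per cell cannot be told apart either. Proteins destined for the cell surface, the extracellular space, the Golgi apparatus or the lysosome are made at the endoplasmic reticulum (ER). A hydrophobic stretch at the start of the chain, or a membrane-spanning stretch within it, directs the ribosome to a translocation channel in the ER membrane. There the chain is cleaved, glycosylated and folded, and it then leaves in coated vesicles. Adhesion receptors such as integrins and cadherins, and the matrix proteins they bind, all take this route.

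Depth was 28261810 to 29515572 assigned reads in the control libraries and 22661812 to 25939425 with ZC3H7B. Replicates differed by 1.62 to 2.97 times counting noise in the control (chi-square per degree of freedom) and by 2.38 to 5.59 times with ZC3H7B, where both higher values involved replicate 3. All 10 markers of HEK293 passed the filter, and their summed level was 33774 to 35725 normalized counts in the control and 36654 to 41498 with ZC3H7B. Of 10 fibroblast markers, 4 passed, with sums of 177 to 211 and 229 to 262, and DCN, THY1 and FAP were below 10 in every library. Of 11 blood cell markers, 3 passed, with sums of 612 to 804 and 345 to 452, nearly all of it HBB, while HBA2 was at 0. Of 6 endothelial markers in the table, 1 passed, with sums of 31.1 to 31.6 and 41.1 to 45.6, and CDH5 was at 0 in all 6 libraries. The part of these other markers in the results was not tested.

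The overexpressed gene itself was read first. ZC3H7B (chr22:41301522-41360147, plus strand, GRCh38) had 2230.5, 2137 and 2089 normalized counts in the control libraries and 27538, 27182 and 28936 with tagged ZC3H7B. All 3 induced libraries stood far above the control, a log2 change of 3.70 ± 0.043 (SE; limma adjusted p = 2.32e-20, n = 3 and 3). The paralogue ZC3H7A (chr16:11750586-11797267, minus strand) had 6509, 6526 and 6607 normalized counts in the control and 4677, 4773 and 4837 with ZC3H7B. Its footprints were lower in every ZC3H7B library, and the fall was 0.46 on the log2 scale (limma adjusted p = 1.68e-08). Footprints on the tagged and the endogenous copy of ZC3H7B cannot be told apart.

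Over the whole transcriptome the footprints were redistributed broadly and in both directions. Of 15135 genes, 8520 (56.3%) passed the limma test at an adjusted p under 0.05. They divided into 4489 higher genes (29.7%) and 4031 lower ones (26.6%), and in 9399 genes (62.1%) the 3 libraries of one group all lay above the other 3. Most changes were small. The median log2 change was 0.45 among the higher genes and -0.41 among the lower, and 693 genes (4.58%) rose and 403 (2.66%) fell at least 2-fold. Higher genes made up 63.2% of those 2-fold calls, but 48.2% after quantile scaling, which gave 495 higher and 533 lower. The median log2 change of all genes was 0.032, so a list's median below is to be read against that value.

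**Figure D1:**
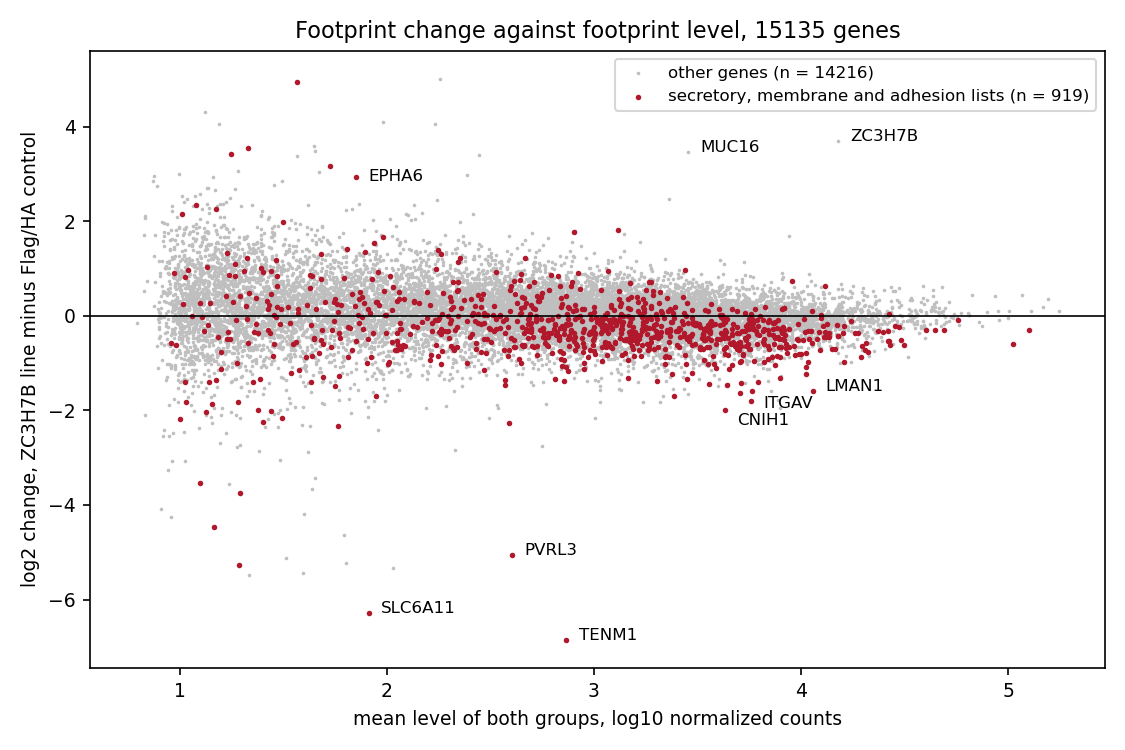
Each point is 1 of the 15135 genes, with the mean level of the 6 libraries (log10 normalized counts) across and the log2 change with ZC3H7B up; red points are the 919 genes of the secretory, membrane and adhesion lists and grey points all others. Among the abundant genes the red points lie mostly below 0, CNIH1, ITGAV and LMAN1 among them.

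Among genes with a mean of at least 100 in either group, the strongest falls were in TENM1, SLC6A11, ZNF43, DLGAP1, PVRL3, ZNF502, BCHE and CGA. Of these 8, TENM1 and PVRL3 are cell surface adhesion proteins, SLC6A11 is a transporter of the neurotransmitter GABA, and BCHE and CGA are secreted. In the ZC3H7A line TENM1 (-4.40), SLC6A11 (-7.35), DLGAP1 (-3.73) and CGA (-4.21) were far below the same control too. PVRL3 was lower there by less (-0.64), and ZNF43 (0.99), ZNF502 (0.45) and BCHE (1.10) were higher. BCHE, which encodes the serum enzyme butyrylcholinesterase, had 424, 316 and 386 normalized counts in the control and 48.7, 46.9 and 60.1 with ZC3H7B, a log2 change of -2.83 ± 0.15 (limma adjusted p = 4.20e-11). CGA, the common alpha subunit of the glycoprotein hormones, had 979, 1006 and 958 in the control and 138, 131 and 169 with ZC3H7B, a log2 change of -2.75 ± 0.10 (limma adjusted p = 1.62e-13). Groups that do not overlap were a condition for naming these genes and those taken by rule from the lists below. That condition held in 62.1% of all genes tested, so it adds no evidence for a named gene.

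TENM1, a teneurin that bridges neighbouring cells, had 1427, 1391 and 1558 normalized counts in the control and 16.7, 10.7 and 8.80 with ZC3H7B. PVRL3, which encodes the adhesion protein nectin-3, had 806, 775 and 768 in the control and 22.8, 18.8 and 26.4 with ZC3H7B. In both genes every ZC3H7B library held a small residue of the control level, and the log2 changes were -6.85 ± 0.18 for TENM1 and -5.06 ± 0.15 for PVRL3. SLC6A11 was read 393 times in the control and only 3 times with ZC3H7B, which at these depths puts the ratio between 38.3 and 549.6 (95% exact interval, counting error only).

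The strongest rises under the same rule were ALS2CR11, CGREF1, ZNF677, ZC3H7B itself, MUC16, ZNF320, BEST1 and ERVMER34-1. In the ZC3H7A line ZNF677 (4.49), ZNF320 (3.61), MUC16 (3.08), CGREF1 (2.25) and BEST1 (1.11) were above the same control as well. ZC3H7B was higher there by 0.39, and ALS2CR11 (-0.85) and ERVMER34-1 (0.33) were not called. MUC16, a very large membrane mucin, had 451, 459 and 495 normalized counts in the control and 4659, 4935 and 6083 with ZC3H7B, a log2 change of 3.47 ± 0.075. BEST1, a chloride channel, had 26.6, 27.5 and 18.9 in the control and 198, 188 and 216 with ZC3H7B (log2 change 3.01 ± 0.20, limma adjusted p = 6.11e-10). ALS2CR11 had 5.06, 17.9 and 10.1 in the control and 321, 321 and 409 with ZC3H7B, a log2 change of 5.01 ± 0.30. With MUC16 and BEST1, membrane proteins stood at the upper end of the changes as well as at the lower.

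The secretory, membrane and adhesion lists as a whole lay on the lower side. Of 919 tested members 538 fell (58.5%, against 26.6% of all genes tested) and 139 rose (15.1%, against 29.7%), and their median log2 change was -0.30. All 22 lists had a larger share of lower genes than the transcriptome. All 22 medians were below 0, and none of them changed sign under the 17 alternative settings. With the filter set at 50 normalized counts, 63.1% of 816 list members and 31.3% of all 12347 genes were lower. The lists were drawn up with earlier results of these data known, so their direction is a description and not independent evidence.

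**Figure D2:**
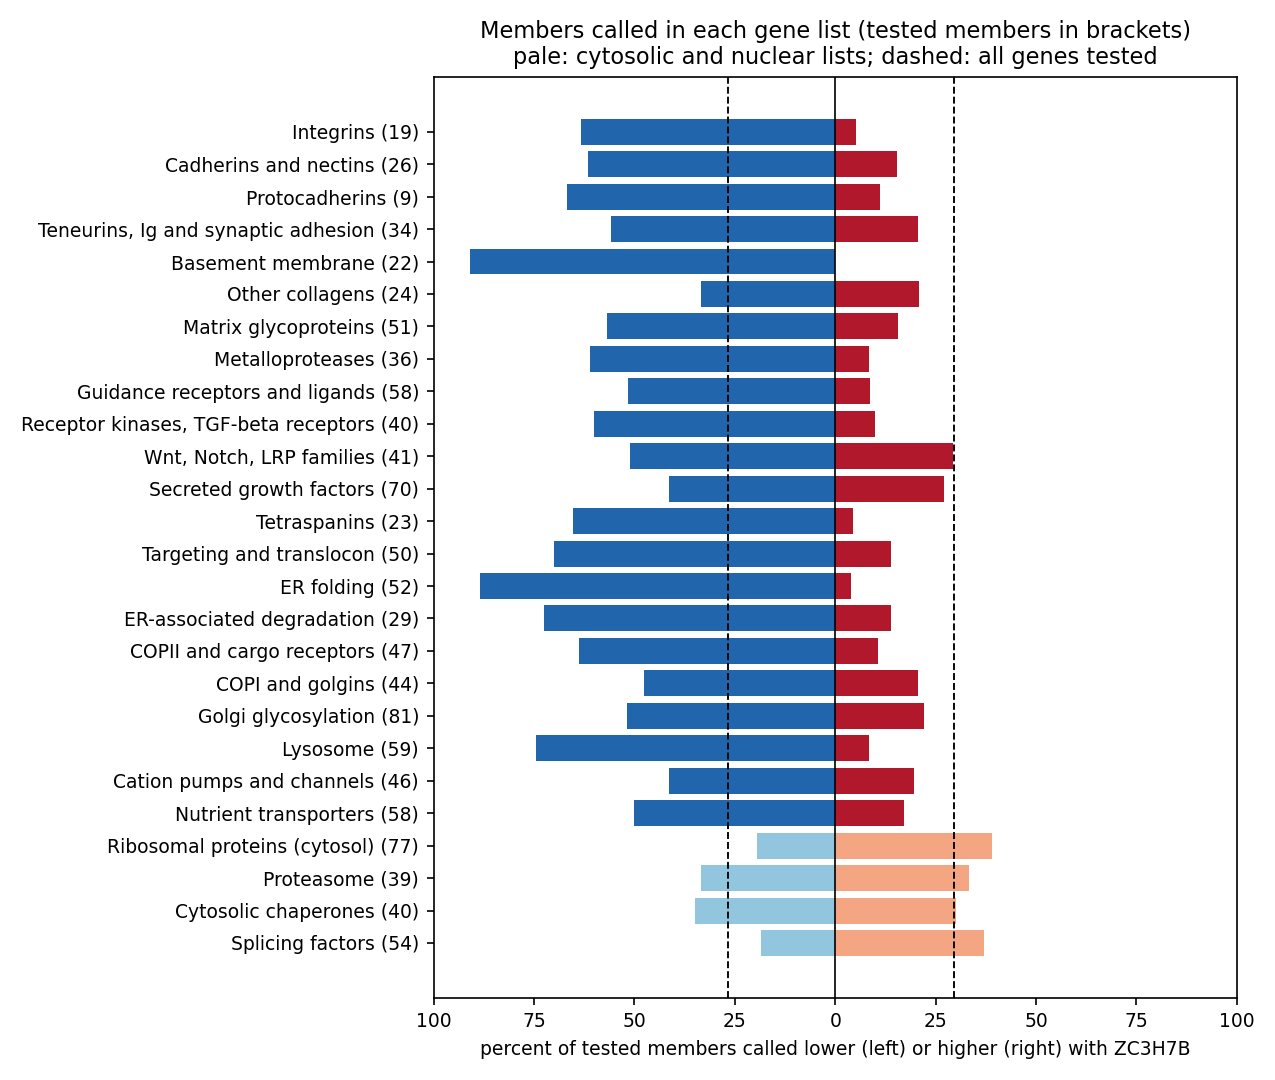
Bars give the percentage of each list's tested members that were called lower (blue, left) or higher (red, right) with ZC3H7B, with the number tested in brackets; dashed lines mark the 26.6% lower and 29.7% higher among all genes tested. The basement membrane and ER folding lists reach furthest to the left, with 90.9% and 88.5% of members lower, and the pale cytosolic and nuclear lists stay near the dashed lines.

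The same shift appeared when footprints were summed within each library. The list genes together took 9.26%, 9.17% and 9.17% of all footprints in the control libraries and 7.28%, 7.35% and 7.24% with ZC3H7B. The integrin list took 0.146%, 0.147% and 0.147% in the control and 0.0924%, 0.0899% and 0.0903% with ZC3H7B. The ER folding list, the one with the most footprints, took 1.97%, 1.92% and 1.93% in the control and 1.47%, 1.51% and 1.44% with ZC3H7B. In none of these sums did the groups overlap. Those of the protocadherin list did, at 0.0259%, 0.0267% and 0.0255% in the control and 0.0254%, 0.0253% and 0.0273% with ZC3H7B. Each ZC3H7B library thus spent a smaller share of its footprints on the list genes together than the control libraries did. In the ZC3H7A line the list genes together took 7.84%, 7.88% and 7.69%. There the integrin list took 0.112%, 0.117% and 0.115%, and the ER folding list 1.52%, 1.56% and 1.46%. These shares also lay below the control, so the shift was not particular to the ZC3H7B line.

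**Figure D3:**
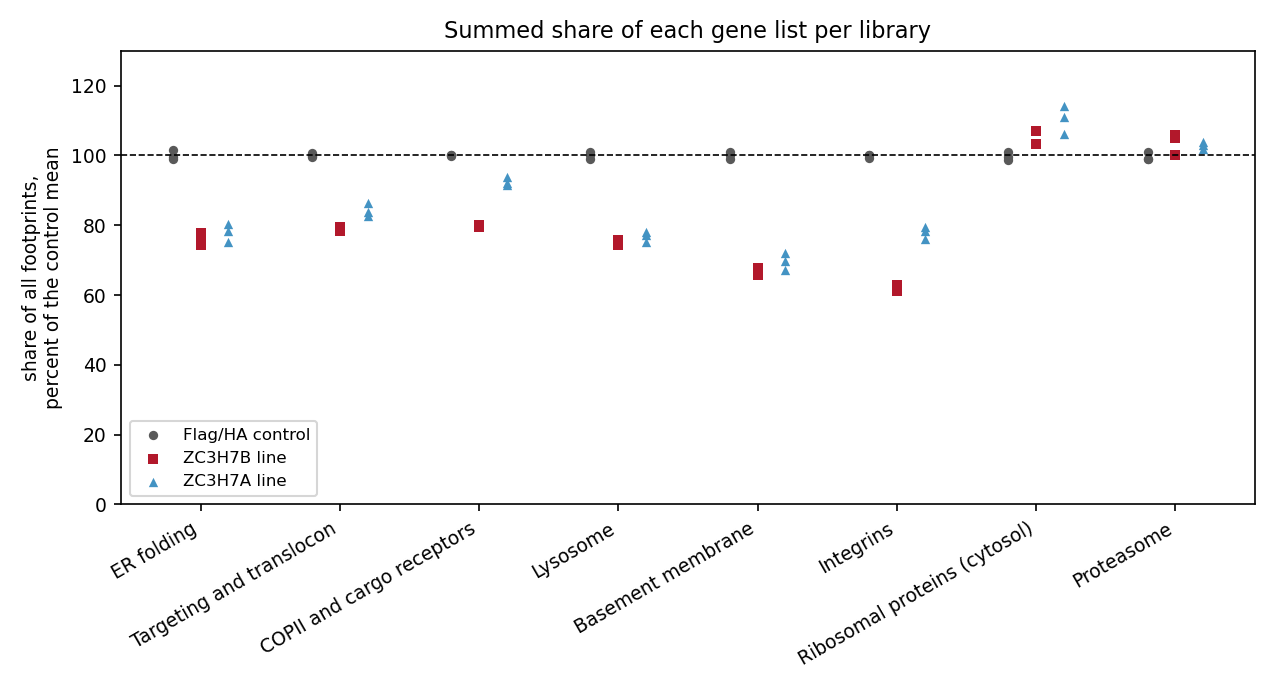
The summed share of all footprints taken by each of 8 lists is shown per library as a percentage of the control mean (points, 3 libraries per line; dashed line, 100). Integrins stand lowest in the ZC3H7B line, while cytosolic ribosomal proteins and the proteasome stay near or above 100.

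Hydrophobic stretches were looked for directly in the coding sequences, because these route a chain to the ER whether or not the gene was in a list. Coding sequences were taken from GENCODE release 29 (GRCh38) and translated. A start stretch was a window of 9 residues with a mean Kyte-Doolittle hydropathy of at least 2.2 within the first 30 residues, and an inner stretch a window of 19 residues with a mean of at least 1.8. The start regions of 4 genes are shown because these genes recur below, 3 that fell (LMAN1, ERO1L and LAMP2) and 1 that rose (JAG2). Each line is the first 30 codons in the 5′ to 3′ direction of the coding strand, and capitals mark the 9 codons of the most hydrophobic window.
LMAN1: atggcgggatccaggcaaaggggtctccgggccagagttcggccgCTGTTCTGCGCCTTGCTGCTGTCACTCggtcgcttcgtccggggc
ERO1L: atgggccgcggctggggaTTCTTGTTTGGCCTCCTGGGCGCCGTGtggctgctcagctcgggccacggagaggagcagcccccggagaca
LAMP2: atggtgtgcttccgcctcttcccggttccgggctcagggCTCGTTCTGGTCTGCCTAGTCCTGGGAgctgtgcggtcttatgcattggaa
JAG2: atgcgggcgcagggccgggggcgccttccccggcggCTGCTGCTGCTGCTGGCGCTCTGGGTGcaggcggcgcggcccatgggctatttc

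These genes lie at chr18:59327823-59359962 (LMAN1), chr14:52639916-52695900 (ERO1L, listed as ERO1A in the annotation), chrX:120427827-120469365 (LAMP2) and chr14:105140981-105168824 (JAG2), all on the minus strand. Their capital windows had mean hydropathies of 2.81, 2.47, 3.32 and 3.10. The value of the gene that rose lay within the range of the genes that fell. The genes differed in the third base of their codons, since 16.6% of JAG2 codons ended in A or T against 57.8% in LMAN1, 63.8% in ERO1L and 61.0% in LAMP2. Other named genes with a start stretch did not divide this way. GALNT13 (60.9%) and LRP1B (61.7%) rose, and MDK (15.5%) and IGFBP5 (15.1%) fell. What set the direction of a gene was not tested.

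Coding sequences were found for 13171 of the genes tested. The 3894 with either stretch were lower in 43.1% of cases and higher in 19.6%, with a median log2 change of -0.13. The 9277 with neither were lower in 23.6% and higher in 35.8%, with a median of 0.065. The pattern was also present outside the lists, where 38.7% of 3096 genes with a stretch fell, with a median of -0.092. It was steeper in genes coding for more membrane passes and for more glycosylation sites. Genes with 6 or more inner stretches (n = 311) were lower in 48.2% of cases, and genes with a start stretch and 10 or more N-glycosylation motifs (n = 208) in 56.7%, against 41.8% of 354 start-stretch genes with no such motif. The last group also had the lower median share of codons ending in A or T (33.9% against 46.7% with 10 or more motifs).

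Integrins, the receptors that anchor cells to the matrix, fell in 12 of 19 tested members and rose in 1, with a median of -0.37. ITGAV, the alpha subunit of the vitronectin receptors, had 9091, 8792 and 8866 normalized counts in the control and 2567, 2524 and 2595 with ZC3H7B. Its libraries were tight within each group and far apart between them, and the log2 change was -1.80 ± 0.040 (limma adjusted p = 3.86e-16). ITGB1, the beta subunit shared by most matrix receptors, had 25304, 24851 and 25329 in the control and 16096, 15533 and 14396 with ZC3H7B, a log2 change of -0.72 ± 0.047. Of the 13 alpha subunits 9 fell, ITGA1 (-1.32), ITGA2 (-0.72), ITGA4 (-0.66) and ITGA6 (-0.52) among them, and of 6 tested beta subunits 3 fell, ITGB3 (-0.99) and ITGB5 (-0.63) besides ITGB1. Among the 9, the low-level ITGA11 (-1.35, limma adjusted p = 0.0154) lost its call without control replicate 1 (-1.25) or 3 (-1.13) or ZC3H7B replicate 3 (-1.01). The one integrin that rose was ITGAE, which pairs with ITGB7 on lymphocytes, at 1175, 1078 and 1014 normalized counts in the control and 1677, 1482 and 1511 with ZC3H7B (log2 change 0.52 ± 0.063). ITGA3, a laminin receptor subunit picked after its values were seen, had 552, 546 and 546 in the control and 465, 495 and 556 with ZC3H7B; its groups overlapped and it was not called (log2 change -0.12, limma adjusted p = 0.206).

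The coding sequences of ITGAV and ITGA3 show how far 2 integrins can differ in codon endings. Of the codons of ITGAV 59.5% ended in A or T, and of those of ITGA3 24.0%. A stretch of 25 codons from each is shown, the first after codon 30 whose share is nearest to that of the whole gene, with the third base of a codon in capitals where it is A or T.
ITGAV: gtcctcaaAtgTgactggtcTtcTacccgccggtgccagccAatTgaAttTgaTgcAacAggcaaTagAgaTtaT
ITGA3: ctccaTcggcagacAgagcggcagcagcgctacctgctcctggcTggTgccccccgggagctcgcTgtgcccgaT

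The ITGAV stretch runs from codon 86 to 110 (gene at chr2:186590065-186680901, plus strand) and holds 15 such codons. The ITGA3 stretch runs from codon 58 to 82 (gene at chr17:50055968-50090481, plus strand) and holds 6.

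Cadherins and nectins, which join neighbouring cells, fell in 16 of 26 tested members and rose in 4, with a median of -0.28. The desmosomal cadherins DSC2 and DSC3 were among the clearest. DSC3 had 10133, 9486 and 9935 normalized counts in the control and 5459, 5583 and 5402 with ZC3H7B, a log2 change of -0.85 ± 0.041 (limma adjusted p = 1.09e-11), and DSC2 changed by -0.94. The members that rose included CDH4, also called R-cadherin (0.63), the atypical cadherin CELSR3 (0.76) and PVR, the poliovirus receptor (0.29). Among protocadherins 6 of 9 fell, PCDH9 (-0.38) and PCDH7 (-0.29) with them. PCDH19, a protocadherin of neurons, rose instead, from 579.8, 563 and 581 normalized counts in the control to 1975, 2052 and 2071 with ZC3H7B. Its groups were far apart, and the log2 change was 1.82 ± 0.053 (limma adjusted p = 1.47e-14).

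Teneurins, latrophilins and immunoglobulin-type adhesion proteins fell in 19 of 34 tested members and rose in 7, with a median of -0.31. CNTN1, a contactin anchored to the surface of neurons, had 3305, 3368 and 3309 normalized counts in the control and 1449, 1502 and 1289 with ZC3H7B (log2 change -1.24 ± 0.054). NRCAM, a neuronal adhesion protein that binds contactins, fell by 0.82 on the log2 scale. F11R, the junctional adhesion molecule A of tight junctions, had 92.4, 100.5 and 96.8 in the control and 266, 252 and 251 with ZC3H7B. It was higher in every ZC3H7B library, with a log2 change of 1.40 ± 0.13, and CNTNAP2 (0.87) and the latrophilin LPHN1 (0.71) rose too.

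Matrix genes fell most uniformly in the basement membrane, the thin sheet under epithelia that is built from laminins, type IV collagen, nidogens and perlecan. There 20 of 22 tested members fell and none rose, with a median of -0.60. LAMA4, a laminin alpha chain of vessels, had 14747, 13998 and 14556 normalized counts in the control and 6856, 7198 and 6332 with ZC3H7B, a log2 change of -1.09 ± 0.048 (limma adjusted p = 2.79e-12). NID1, which links laminin to type IV collagen, had 14683, 13983 and 14334 in the control and 7543, 7335 and 6923 with ZC3H7B (log2 change -0.98 ± 0.044). Of 10 tested laminin chains 9 fell, with LAMB1 at -0.76 and LAMC1 at -0.54, and all 6 type IV collagen chains fell, from -0.29 for COL4A1 to -0.82 for COL4A5. The rarer COL4A5 had 1527, 1464 and 1457 in the control against 817, 846 and 857 with ZC3H7B. Its libraries did not overlap, as in 62.1% of all genes tested.

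Other collagens were less uniform, with 8 of 24 lower and 5 higher and a median of -0.19. COL2A1, the collagen of cartilage, had 11309, 10603 and 10598 normalized counts in the control and 6617, 6369 and 5946 with ZC3H7B (log2 change -0.78 ± 0.047), while COL27A1, another fibrillar collagen, rose by 0.98. COL1A1 (0.53, limma adjusted p = 0.0110) lost its call when control replicate 3 was left out. Matrix glycoproteins fell in 29 of 51 members and rose in 8, with a median of -0.36. FBLN1, a fibulin that binds fibronectin and elastic fibres, had 2955, 2783 and 2964 in the control and 1163, 1203 and 1014 with ZC3H7B, a log2 change of -1.37 ± 0.059. FBN1, the main protein of microfibrils, moved the other way, with 1930.5, 1866 and 1783 in the control and 3854, 3675 and 3439.5 with ZC3H7B (log2 change 0.97 ± 0.050, limma adjusted p = 2.11e-11).

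Metalloproteases and their inhibitors, which cut surface and matrix proteins, fell in 22 of 36 members and rose in 3, with a median of -0.42. ADAM9, a membrane-bound sheddase, had 7845, 7591 and 7679.8 normalized counts in the control and 2401, 2526 and 2523 with ZC3H7B. Every ZC3H7B library was far below the control, with a log2 change of -1.63 ± 0.041 (limma adjusted p = 2.38e-15). ADAMTS1, a secreted protease of proteoglycans, had 25643, 24675 and 24878 in the control and 14007, 13726 and 13234 with ZC3H7B (log2 change -0.88 ± 0.043), and MMP2, the gelatinase A, changed by -1.16. ADAMTS20 was called higher by 0.18, but that call was lost under 8 of the alternatives, count models among them.

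Axon guidance receptors and ligands fell in 30 of 58 members and rose in 5, with a median of -0.32. SEMA3C, a secreted semaphorin, had 3819, 3629.6 and 3725 normalized counts in the control and 1131, 1222 and 1087 with ZC3H7B, a log2 change of -1.70 ± 0.050 (limma adjusted p = 1.64e-14). Of the plexins and neuropilins, the receptors of semaphorins, 7 of 10 fell and none rose, with PLXND1 at -0.78 and NRP1 at -0.55. Of 11 ephrin receptors 6 fell, EPHA3 (-0.62) and EPHA2 (-0.55) among them. EPHA6 stood apart, with 15.2, 23.9 and 10.1 in the control and 120.1, 133 and 125 with ZC3H7B, a log2 change of 2.94 ± 0.28 (limma adjusted p = 5.14e-08). The small rises of the ligands EFNB1 (0.19) and EFNA5 (0.13) did not hold under every alternative.

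Receptor kinases and receptors of the TGF-beta family fell in 24 of 40 members and rose in 4, with a median of -0.26. FLT1, a receptor of vascular endothelial growth factor, had 3071, 2923 and 2865 normalized counts in the control and 1472, 1494 and 1443 with ZC3H7B (log2 change -1.01 ± 0.046). TGFBR1, the type I receptor of TGF-beta, had 2812, 2774 and 2924 in the control and 1527, 1609.7 and 1499 with ZC3H7B (log2 change -0.88 ± 0.047), and MERTK, a receptor for the uptake of dying cells, changed by -1.09. The activin receptor ACVR2B (0.72), the insulin receptor INSR (0.39) and FGFR1 (0.18) rose. Both directions thus occurred among receptors of closely related type.

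Receptors of the Wnt, Notch and LRP families had the largest share of rises among the surface lists, with 21 of 41 lower and 12 higher and a median of -0.24. That share, 29.3%, was near the 29.7% of all genes tested, while 51.2% were lower against 26.6%. LRP2, the endocytic receptor megalin, had 9532, 9325 and 9310.3 normalized counts in the control and 5094, 5250.2 and 4943 with ZC3H7B, a log2 change of -0.88 ± 0.041. LRP3 had 273, 307 and 255 in the control and 605, 629 and 713 with ZC3H7B (log2 change 1.22 ± 0.092). In the Notch pathway, where binding of a ligand on one cell exposes the receptor on its neighbour to proteases, the receptors NOTCH1 (-0.57), NOTCH2 (-0.35) and NOTCH3 (-0.44) and the ligand JAG1 (-0.48) fell. JAG2, the other Jagged ligand, had 805, 774 and 828 in the control and 1454, 1624 and 1533 with ZC3H7B, a log2 change of 0.94 ± 0.058 (limma adjusted p = 2.42e-10). Frizzled receptors showed no common direction, with 4 of 9 lower and 3 higher.

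Secreted growth factors and their binding proteins fell in 29 of 70 members and rose in 19, the largest number of rises in a secretory list, with a median of -0.16. The rises made up 27.1%, against 29.7% of all genes tested, and the falls 41.4% against 26.6%. IGFBP7, a secreted binding protein of insulin-like growth factors, had 653, 584 and 704 normalized counts in the control and 126, 148 and 129 with ZC3H7B, a log2 change of -2.26 ± 0.10 (limma adjusted p = 5.05e-12). MDK, the heparin-binding factor midkine, fell by 0.84 and IGFBP5 by 0.82 on the log2 scale. VEGFA, the main growth factor of blood vessels, had 1089, 1159 and 1158 in the control and 1811, 1712 and 1987 with ZC3H7B (log2 change 0.69 ± 0.058), so the ligand was higher while its receptor FLT1 was lower. SFRP1, a secreted inhibitor of Wnt signalling, rose by 0.85, and STC2, a glycoprotein hormone, by 0.55. TFPI, the tissue factor pathway inhibitor, is in no list and was picked after its values were seen, with 1768, 1538 and 1661 in the control and 399.9, 373 and 329 with ZC3H7B (log2 change -2.17 ± 0.076).

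Tetraspanins, small membrane proteins that organise surface complexes, fell in 15 of 23 members and rose in 1, with a median of -0.33. CD63, a tetraspanin of late endosomes and exosomes, had 12442, 11585 and 11786 normalized counts in the control and 8560.4, 8734 and 7948 with ZC3H7B (log2 change -0.51 ± 0.046), and TSPAN6 changed by -0.72.

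Cation pumps and channels fell in 19 of 46 members and rose in 9, with a median of -0.13. CACNA2D1, the alpha-2/delta subunit of voltage-gated calcium channels, had 4172, 4164 and 4138 normalized counts in the control and 1776, 1829.6 and 1833 with ZC3H7B, a log2 change of -1.20 ± 0.042 (limma adjusted p = 1.43e-13). The calcium pump ATP2B4 (-0.86) and the channel kinase TRPM7 (-0.81) fell as well. The beta subunits ATP1B1 (-0.37) and ATP1B3 (-0.52) of the sodium-potassium pump fell too.

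Transporters of nutrients and ions fell in 29 of 58 members and rose in 10, with a median of -0.17. SLC12A2, the sodium-potassium-chloride cotransporter, had 14880.3, 14798 and 14725 normalized counts in the control and 6424, 6323 and 6163 with ZC3H7B, a log2 change of -1.23 ± 0.040 (limma adjusted p = 4.95e-14). Of 7 zinc transporters 6 fell, with SLC39A10 at -1.13 and SLC30A1 at -0.60, and quantile scaling left 5 of them called. Transporters of amino acids went both ways. SLC1A5, which imports glutamine, had 10478, 10036 and 10266 in the control and 16611, 16432 and 14623 with ZC3H7B, a log2 change of 0.63 ± 0.049, and the leucine transporter SLC7A5 (0.50) and the cystine transporter SLC7A11 (0.36) rose as well. The neutral amino acid transporter SLC6A15 (-0.95) and the cationic one SLC7A2 (-0.57) fell. Of 8 tested genes of the SLC7 family and its partner SLC3A2, 3 rose and 2 fell, and SLC3A2 itself was not called (-0.083, limma adjusted p = 0.146). Codons ending in A or T made up 20.9% of SLC1A5 and 9.68% of SLC7A5, against 56.9% of SLC12A2 and 67.2% of SLC39A10. Not every named gene followed this order. IGFBP5 (15.1%), MDK (15.5%) and IGFBP7 (28.1%) fell, while GALNT13 (60.9%), LRP1B (61.7%) and SRP19 (62.9%) rose. Over 13171 genes the Spearman correlation of this percentage with the log2 change was -0.30. TMEM30A, a chaperone of lipid flippases picked after its values were seen, had 12849, 12470.4 and 12472 in the control and 3243, 3305 and 3159 with ZC3H7B (log2 change -1.96 ± 0.040).

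**Figure D4:**
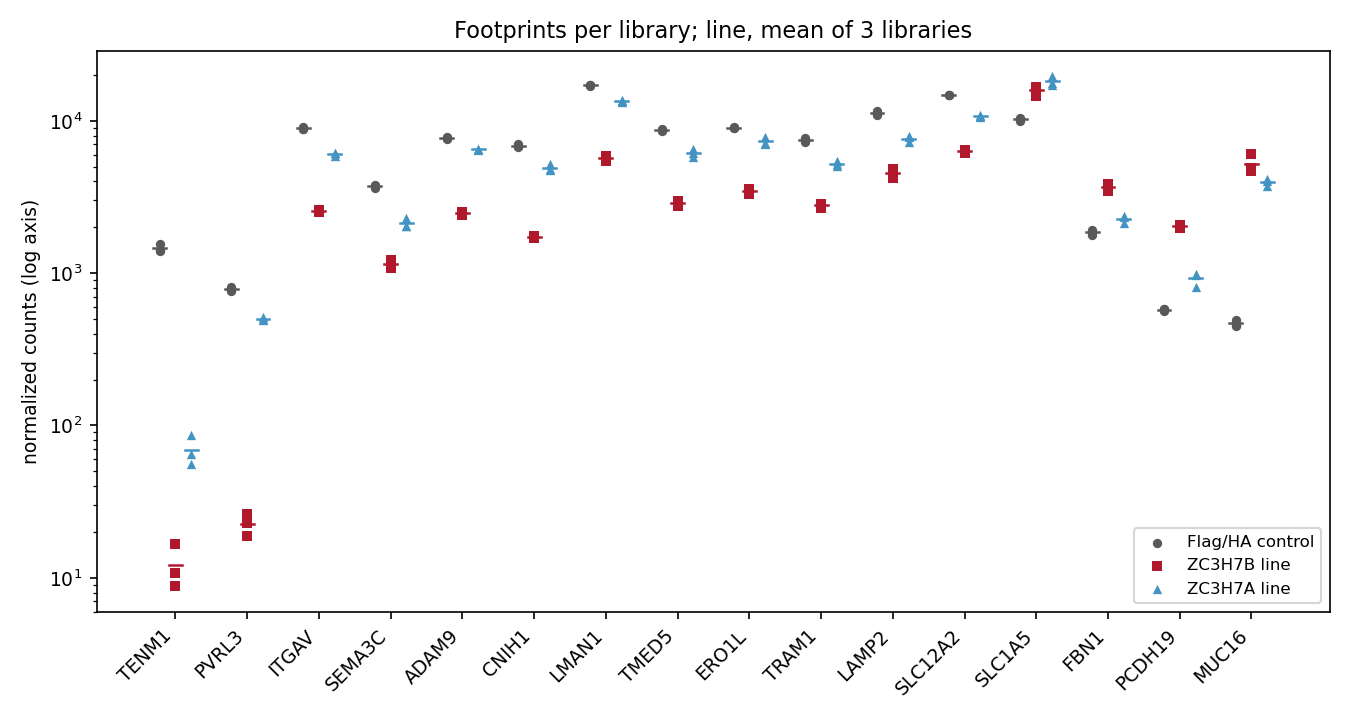
Normalized counts on a log axis are shown for 16 named genes in each library of the Flag/HA control (circles), the ZC3H7B line (squares) and the ZC3H7A line (triangles), with a line at the mean of 3. The squares lie below the circles for the 12 genes from TENM1 to SLC12A2 and above them for SLC1A5, FBN1, PCDH19 and MUC16. The rule that named these genes required squares and circles to be separate.

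The machinery that makes secretory proteins was lower as well. Factors of targeting, translocation and first processing at the ER fell in 35 of 50 members and rose in 7, with a median of -0.31. TRAM1, which sits beside the translocation channel, had 7739.5, 7271 and 7477 normalized counts in the control and 2829.6, 2842 and 2683 with ZC3H7B, a log2 change of -1.43 ± 0.043 (limma adjusted p = 1.78e-14). SPCS3, a subunit of the signal peptidase that removes the start stretch, had 6276, 6433 and 6643 in the control and 2439, 2248 and 2322 with ZC3H7B (log2 change -1.47 ± 0.044). The members of whole complexes were then counted, a choice made after the values were seen. All 4 subunits of the TRAP complex (SSR1 to SSR4) fell, from -0.36 to -0.65, as did 4 of 5 signal peptidase subunits and 10 of 12 subunits of the oligosaccharyltransferase, which attaches N-glycans, with MAGT1 at -0.98 and STT3B at -0.58. In the last complex RPN2 was not called (0.046, limma adjusted p = 0.440), and KRTCAP2 rose from 65.8, 65.8 and 90.5 to 116, 123 and 161 (0.84, limma adjusted p = 7.52e-04). Of the channel proper, SEC61A1 (-0.31), SEC61B (-0.21) and SEC61G (-0.17) fell and SEC61A2 rose (0.36), and the accessory proteins SEC62 (-0.92) and SEC63 (-0.83) fell. The call of SEC61G was lost under quantile scaling (-0.067, limma adjusted p = 0.0806). The signal recognition particle, which works in the cytosol, was divided, with SRP72 (-0.66) and SRP54 (-0.25) lower and SRP19 (1.14) and SRP9 (0.36) higher.

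Protein folding in the ER was the list with the most uniform fall after the basement membrane, 46 of 52 members lower and 2 higher with a median of -0.57. ERO1L, the oxidase that supplies disulfide bonds, had 9109, 8929 and 8946 normalized counts in the control and 3480.4, 3552 and 3294 with ZC3H7B, a log2 change of -1.39 ± 0.042 (limma adjusted p = 1.80e-14). PLOD2, which hydroxylates lysines of collagen, had 10309, 9867 and 10104 in the control and 4958, 4927 and 4698 with ZC3H7B (log2 change -1.05 ± 0.041), and MANF, an ER-resident factor induced by misfolded protein, changed by -1.03. All 10 protein disulfide isomerases and relatives fell, with PDIA3 at -0.71 and P4HB at -0.22. One of them, TXNDC5 (-0.29, limma adjusted p = 0.0414), overlapped between the groups, and its call was lost without control replicate 1 (-0.30) or 3 (-0.24) or ZC3H7B replicate 1 (-0.29) or 2 (-0.16). The chaperones HSPA5 (-0.51), HSP90B1 (-0.31) and HYOU1 (-0.60), the glycoprotein folding sensor UGGT1 (-0.79) and calnexin, CANX (-0.60), fell too. Calreticulin, CALR, was an exception with 60440.3, 57742 and 58215 in the control and 54966, 57724 and 53379 with ZC3H7B, and it was not called (-0.088, limma adjusted p = 0.176). The call of DNAJC1 as higher (0.11) was lost under 11 of 17 alternatives.

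ER-associated degradation, which returns misfolded chains to the cytosol, fell in 21 of 29 members and rose in 4, with a median of -0.32. SEL1L, the scaffold of the main ubiquitin ligase of the ER, had 5266, 5354 and 5354 normalized counts in the control and 3410.5, 3537 and 3246 with ZC3H7B (log2 change -0.65 ± 0.043). The protease MBTPS2, which releases membrane-bound transcription factors in the Golgi, changed by -1.04. All 4 sensors of unfolded protein in the list fell, ATF6 (-0.57), EIF2AK3 (-0.32), ERN1 (-0.29) and ATF6B (-0.20). XBP1, the transcription factor downstream of ERN1, rose from 1879, 1879 and 1894 to 2345, 2236 and 2172 (log2 change 0.26 ± 0.046, limma adjusted p = 1.18e-04).

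Export from the ER in COPII-coated vesicles fell in 30 of 47 members and rose in 5, with a median of -0.24. The cargo receptors carried the largest falls. CNIH1, a cornichon protein that loads growth factor precursors, had 7032, 6727 and 6844 normalized counts in the control and 1703, 1745 and 1715 with ZC3H7B, a log2 change of -2.00 ± 0.041 (limma adjusted p = 1.91e-16). LMAN1, the lectin that carries coagulation factors, had 17199, 17019.96 and 17108 in the control and 5662, 5886 and 5464 with ZC3H7B (log2 change -1.59 ± 0.042). TMED5 of the p24 family had 8736, 8624 and 8807 in the control and 2944, 2975 and 2765 with ZC3H7B, also -1.59. The groups of these 3 genes did not overlap, which the rule that named them required. In the coat itself the paralogues SEC23A and SEC23B moved in opposite directions. SEC23A had 7226, 7120.5 and 6876 in the control and 4286, 4475 and 4186 with ZC3H7B (-0.71), and SEC23B had 6834, 6602 and 6742 in the control and 11439, 11575 and 10749.8 with ZC3H7B (0.74 ± 0.042). The coat subunits were at like levels in the control and SEC23B was the higher of the pair in every ZC3H7B library.

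Golgi traffic was the machinery list nearest to the transcriptome, with 21 of 44 lower, 9 higher and a median of -0.10, which quantile scaling brought to -0.0044. USO1, a tether for incoming vesicles, had 8812, 8578 and 8638 normalized counts in the control and 5273, 5463 and 5192 with ZC3H7B (log2 change -0.71 ± 0.040). The small GTPase ARF3 had 286, 426 and 388 in the control and 1244, 1154 and 1304 with ZC3H7B, a log2 change of 1.77 ± 0.11 (limma adjusted p = 1.86e-10), and the SNARE protein GOSR2 rose by 1.22. Golgi glycosylation enzymes fell in 42 of 81 members and rose in 18, with a median of -0.17. GALNT1, which starts O-linked glycans, had 4065, 3913 and 4138 in the control and 1708, 1615 and 1479.9 with ZC3H7B (log2 change -1.34 ± 0.052). Of 9 enzymes of that family 6 fell, with GALNT7 at -0.97 and GALNT12 at -1.35, and GALNT13 (0.90) and GALNT14 (0.42) rose. The 6 include GALNT10 (-0.17, limma adjusted p = 0.0466), whose call was lost under 7 of 17 alternatives, down to -0.12 without control replicate 1.

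Lysosomal genes fell in 44 of 59 members and rose in 5, with a median of -0.43. LAMP2, a major protein of the lysosomal membrane, had 11573, 11194 and 10938 normalized counts in the control and 4575, 4795 and 4190.5 with ZC3H7B, a log2 change of -1.32 ± 0.048 (limma adjusted p = 2.84e-13). SCARB2, the receptor that brings glucocerebrosidase to lysosomes, had 8819, 8782 and 8848 in the control and 4487, 4452 and 4481 with ZC3H7B (log2 change -0.98 ± 0.038). The sulfatase ARSB changed by -1.38, and 6 of 7 tested proton pump subunits fell, with ATP6AP2 at -0.69. The fall of one, ATP6V0D1 (-0.14), was not called under quantile scaling (-0.081) or without control replicate 1 (-0.10). The proteases CTSH (0.72) and CTSA (0.19) rose.

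Lists of proteins made in the cytosol served as a contrast. Together 52 of their 210 members were lower (24.8%, against 26.6% of all genes tested) and 75 higher (35.7%, against 29.7%). Their median was 0.039, near the 0.032 of all genes. Cytosolic ribosomal proteins fell in 15 of 77 and rose in 30, with a median of 0.051. RPL30 had 4813, 4432 and 4407 normalized counts in the control and 3155, 3077 and 2906 with ZC3H7B (-0.58), and RPL22 had 885, 1133 and 979 in the control and 2174, 1873 and 2018 with ZC3H7B (1.02). Ribosomal protein genes have many processed copies in the genome, so the authors' counting could have split their reads. Proteasome subunits (13 lower and 13 higher of 39) and cytosolic chaperones (14 and 12 of 40) were balanced, and the sign of their medians, 0.021 and -0.0080, changed under 3 and 4 of the 17 alternatives. Splicing factors fell in 10 of 54 and rose in 20. With quantile scaling the higher counts became 21 for the proteasome and 37 for splicing factors.

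Codon endings gave a second ordering of the changes. Genes were divided into 5 groups of equal size by the percentage of their codons that end in A or T. From the group with the fewest (0 to 24.5%) to that with the most (58.7 to 78.7%), the share of lower genes was 14.0%, 18.0%, 24.9%, 39.6% and 50.5%, and the median log2 change went from 0.20 to -0.15. Within every group, genes with a hydrophobic stretch were lower more often than genes without one, with 25.6% against 7.62% in the first group and 67.1% against 46.3% in the last. The Spearman correlation of the percentage with the log2 change was -0.30 over 13171 genes, -0.31 over 917 genes of the secretory lists and -0.40 over 209 genes of the contrast lists. These are correlations across genes of the same libraries, which are not independent replicates, and codon endings also follow the base composition of a gene. Between the lines (ZC3H7B minus ZC3H7A) the medians of the 5 groups were -0.0074, 0.0093, 0.021, 0.0044 and -0.0065. The ordering of medians seen against the control was thus absent between the lines. Genes lower with ZC3H7B than with ZC3H7A made up 16.6% of the first group and 26.1% of the last, and higher ones 16.4% and 21.2%.

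**Figure D5:**
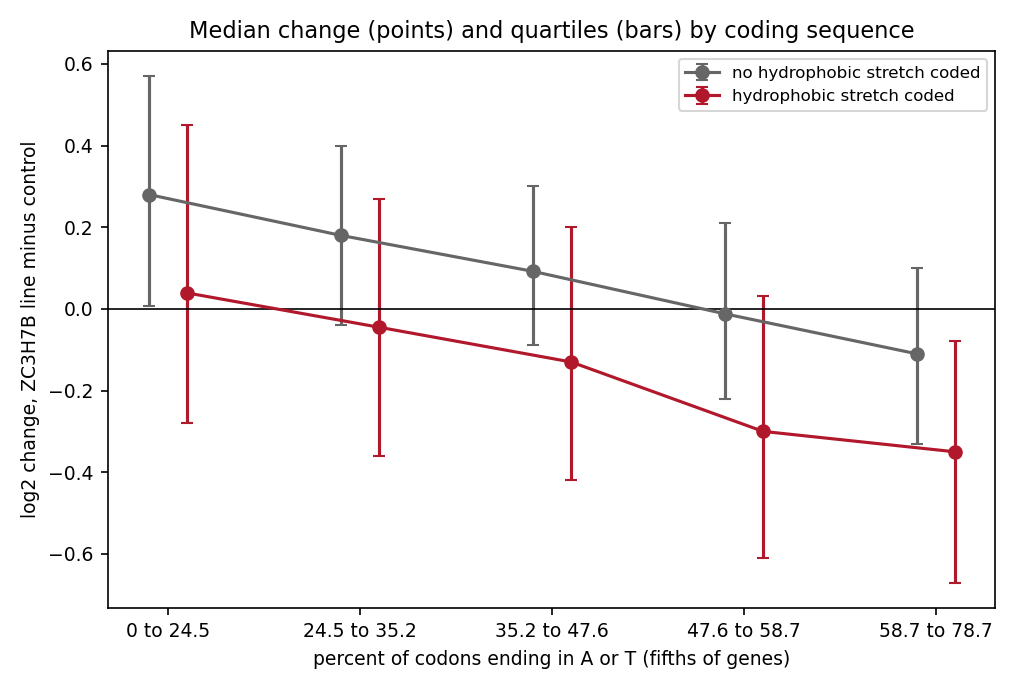
Medians (points) and quartiles (bars) of the log2 change with ZC3H7B are given for 5 groups of genes by the percentage of codons ending in A or T, with genes that code for a hydrophobic stretch in red and others in grey. Both lines fall from left to right, the red one below the grey throughout, from 0.039 to -0.35 against 0.28 to -0.11.

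Single codons divided along the same line. The frequency of 29 of 30 codons ending in A or T correlated negatively with the change, and that of 28 of 31 ending in G or C positively. The lowest values were -0.30 for ATT (isoleucine), -0.29 for GTT (valine) and -0.28 for AAT (asparagine), and the highest 0.28 for CCC (proline), 0.25 for GAG (glutamate) and 0.25 for CGG (arginine). ATT made up 21.1 of 1000 codons in the lower genes and 12.6 in the higher ones, and CCC 14.3 and 23.9. The difference in median level between the last and first of these groups, computed per library about each gene's mean, was 0.18, 0.15 and 0.17 (log2) in the control and -0.16, -0.14 and -0.25 with ZC3H7B. The groups did not overlap, and the exact two-sided permutation p was 0.100, the smallest that 3 against 3 libraries allow. The corresponding difference between genes with and without a hydrophobic stretch was 0.11 in each control library and -0.11, -0.11 and -0.10 with ZC3H7B (exact permutation p = 0.100).

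Which of these changes differed from those of the ZC3H7A line was tested directly between the lines, without the control libraries. The ZC3H7B libraries are the same as before, so for genes named by their change above this test is not independent. Of the 15135 genes, 5147 (34.0%) differed, 2576 (17.0%) higher and 2571 (17.0%) lower with ZC3H7B. Of the 919 list genes 315 were lower and 121 higher with ZC3H7B than with ZC3H7A, and the median difference was -0.10, against 0.012 for all genes. ITGAV averaged 2562 ± 35.3 normalized counts with ZC3H7B and 6038 ± 148 with ZC3H7A (SD, n = 3 each), a log2 difference of -1.24 (limma adjusted p = 1.37e-14). CNIH1 averaged 1721 ± 21.8 and 4922 ± 271 (-1.51), ADAM9 2483 ± 71.3 and 6499.9 ± 73.8 (-1.39), and ERO1L 3442 ± 133 and 7356 ± 444 (-1.09). For all 4 genes the ZC3H7B libraries were the lowest of the 3 lines. Their naming for falls in those libraries favours that order.

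The opposite order held for part of the matrix. In the basement membrane list 9 genes were higher with ZC3H7B than with ZC3H7A and 3 lower, although nearly all were below the control in the ZC3H7B line. LAMB2, a laminin beta chain, averaged 1626 ± 116 normalized counts with ZC3H7B and 1063 ± 135 with ZC3H7A, against 2994 ± 74.9 in the control (log2 difference between the lines 0.62, limma adjusted p = 1.66e-06). ADAMTS1 averaged 13656 ± 391 and 8117 ± 566 (0.75), and IGFBP7 134 ± 11.6 and 29.6 ± 1.61 (2.14). For ITGB1 the lines were not told apart (-0.016, limma adjusted p = 0.857). Lysosomal genes were divided, with 17 lower and 19 higher with ZC3H7B than with ZC3H7A.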

How the data were processed

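Ribosome profiling libraries of HEK293 cells were read from 1 table with 55773 gene names and 15 libraries. Its values are a signal per gene that the authors had normalized before they deposited it, as normalized counts per the file name. Tools listed in the submitters' processing notes are DESeq2, HTSeq, STAR, Bowtie and cutadapt, with hg19 and hg38 as builds. What each was used for, and the handling of reads that align to several places, is not given in the sources used here. Low values of each library were whole multiples of 1 step. When divided by it, 100% of values became whole reads, to within 0.001 of a read at low counts. For genes with many reads the allowance grew in proportion to the count. A further 28 names that a spreadsheet had turned into dates held 0.212% to 0.285% of reads in the 9 libraries used and were left unnamed.

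Genes at 10 or more in at least 3 of the 6 libraries were tested with limma 3.58.1 (lmFit, eBayes with trend; R 4.3.3) on log2(value + 1), with Benjamini-Hochberg adjustment over all 15135 genes and a threshold of 0.05. Fold changes are on that scale, so those of genes with low values come out too small. As count tests on the whole reads, edgeR 4.0.16 (quasi-likelihood) called 4289 genes higher and 4322 lower, and DESeq2 1.42.0 called 3747 and 4042. Intervals cover only the error of counting, as the labels mention no molecular identifiers. The step was tested on simulated data.

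Of the gene names 35603 matched GENCODE release 29 and 19116 had a coding sequence. The build of coordinates and sequences is GRCh38, and the files were matched to it by gene symbol. Genes named are ZC3H7B and ZC3H7A, then the 8 lowest and 8 highest log2 changes among called genes with groups that do not overlap and a mean of 100 or more in either group. Each list added its called genes with the smallest p, at most 3 higher and 3 lower, or 2 in the contrast lists. Some genes that meet this rule are not reported here. Subunits of complexes and the genes said to be picked later were chosen after their values were seen. The comparison, lists and rules were chosen with earlier results of these data known. Alternatives were other pseudocounts, filters and scalings, library weights, a fit with 9 libraries, a replicate block, the count tests and leaving out each library.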

Additional observations from a re-analysis of the deposited data

Results flagged for a closer look

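Among the named genes 11 passed the test against the control in opposite directions in the ZC3H7B and ZC3H7A lines, and also differed in the direct test between the lines. The comparisons with the control share its 3 libraries. The direct difference (ZC3H7B minus ZC3H7A, log2, limma) reuses the libraries of both lines that picked these genes. It gives the size of each difference and is not separate evidence. The first of the 11 genes is ZC3H7A itself, the overexpressed gene of one line, at -3.00.

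Of the others, 5 are surface proteins of guidance or uptake. EPHA6, an ephrin receptor, differed by 4.96, with 126 ± 6.42 normalized counts with ZC3H7B, 3.66 ± 2.96 with ZC3H7A and 16.4 ± 7.01 in the control (SD, n = 3 each). LRP1B, an endocytic receptor, differed by 2.71, with 1022 ± 34.1, 156 ± 21.0 and 688 ± 56.4. CELSR3 differed by 1.03. UNC5C, a netrin receptor, differed by -0.91, with 1175 ± 36.4, 2213 ± 72.1 and 1921 ± 81.1. SLC6A15, a transporter of neutral amino acids, differed by -1.37, with 4046 ± 158, 10438 ± 348 and 7791 ± 336.

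BCHE differed by -3.93, with 51.9 ± 7.17 normalized counts with ZC3H7B, 803 ± 59.4 with ZC3H7A and 375 ± 54.9 in the control. The zinc finger genes ZNF43 and ZNF502 differed by -6.32 and -5.09. In ER-associated degradation, DERL3 differed by 0.93 and UBE2J2 by 0.66.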

How the results depend on the processing

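The counts of called genes kept within 1.5 times their value under other pseudocounts, scalings and weights, a 9-library fit and the count tests. A filter at 50 left 310 genes at least 2-fold higher and 260 at least 2-fold lower, with 12347 genes tested. Without a filter, 32588 genes were tested and 3247 differed between the ZC3H7B and ZC3H7A lines. Leaving out 1 library at a time gave 7608 to 8527 called genes, 3949 to 4466 higher and 3646 to 4061 lower, 585 to 735 at least 2-fold higher and 370 to 424 at least 2-fold lower. List members numbered 507 to 544 lower and 117 to 134 higher, and 4282 to 4962 genes differed between the lines.

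A replicate block called 8684 genes, 4571 higher and 4113 lower, and 5636 between the lines. Same-numbered control and ZC3H7B libraries correlated at 0.025, -0.048 and 0.053 in their deviations, so they share only a number.

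No named gene changed direction in 2584 alternative values. The calls of COL1A1, ADAMTS20, EFNB1, EFNA5 and DNAJC1 were lost in 27 of them. Of 202 subunit genes 32 lost their call under at least 1 setting, and SAR1A (-0.11) turned to 0.028 under quantile scaling; the cause was not tested. Lower counts of the lists all stayed within 1.5 times, and 25 other list counts, all of higher members, did not. Low read numbers limit SLC6A11, ZNF43, ZNF502 and DLGAP1 in the ZC3H7B line.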
